A study of Mus musculus with 12 samples.

Results

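The genes described here are 33 mouse genes of glycolysis and of the handling of pyruvate, taken as a list of names from glucose and lactate transporters to the pyruvate dehydrogenase kinases, together with Hif1a. All 33 were among the 20778 gene symbols of the deposited table and all 33 passed the filter on low counts, which left 12122 genes. To set the expression profile induced by IFNγ beside those of other activations, the study sequenced mRNA from CD8 T cells, taken with magnetic beads from spleens of the C57BL/6 strain (mice labelled as 6 weeks old) and cultured for 6 hours. Of 12 libraries, 3 came from untreated cells (Naïve), 3 from cells stimulated with an antibody to CD3, through which the T cell receptor signals (αCD3, 1 µg/ml), 3 from cells given the cytokine interferon gamma (IFNγ, 70 ng/ml) and 3 from cells given lipopolysaccharide, a bacterial cell wall component (LPS, 1 µg/ml). Both 1 µg/ml doses are uncertain, because another label field has mg/ml, and so is the age, for which the methods name older mice. No source used here says whether the 3 libraries of a group came from separate animals or cultures, so p-values measure the spread between libraries, which may be technical.

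Glycolysis splits glucose into pyruvate in the cytosol and yields ATP and NADH. Lactate dehydrogenase turns pyruvate into lactate and regenerates NAD+. Pyruvate that enters the mitochondrion is instead turned into acetyl-CoA by the pyruvate dehydrogenase complex there, unless its kinases switch the complex off. Resting T cells rely mostly on mitochondrial respiration, and T cells stimulated through their receptor take up more glucose and release lactate, a shift in which Myc and Hif1a are known regulators.

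Total counts ran from 10.2 M to 27.6 M per library. Levels are in CPM, which are counts divided by library sizes that TMM factors had adjusted, and genes are referred to as called where the quasi-likelihood test of edgeR gave an adjusted p under 0.05. Fold changes are log2 values with their standard error (SE). Markers of the labelled cell type were present, with Cd8a at 187.6 to 504 CPM and Cd3e at 87.6 to 187 CPM. The libraries also held markers of other cells. The summed CPM of the 10 B cell markers in the table (2101 to 3728) was above that of the 7 T cell markers (783.5 to 1501) in every library, sums that depend on which genes each list holds. Of these T cell markers, 4 rose (57.1%) and 1 fell (14.3%) with αCD3, none was called with IFNγ and 6 fell (85.7%) with LPS. Of the 10 B cell markers, 4 fell with αCD3 (40%) and 2 with IFNγ (20%). With LPS 1 rose (10%) and 2 fell (20%). Of 14 myeloid markers, 4 fell with αCD3 (28.6%), and 1 rose and 1 fell with IFNγ (7.14% each). With LPS 2 rose (14.3%) and 8 fell (57.1%). Of all tested genes, 22.9% rose and 15.7% fell with αCD3, 8.17% and 4.27% with IFNγ, and 26.9% and 22.3% with LPS. Several marker shares, such as B cell markers lower with LPS and myeloid markers called with IFNγ, were near these. In such bulk samples, fewer cells of a type and less RNA per cell cannot be told apart, and the part of other cells in the values below was not tested.

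**Figure D1:**
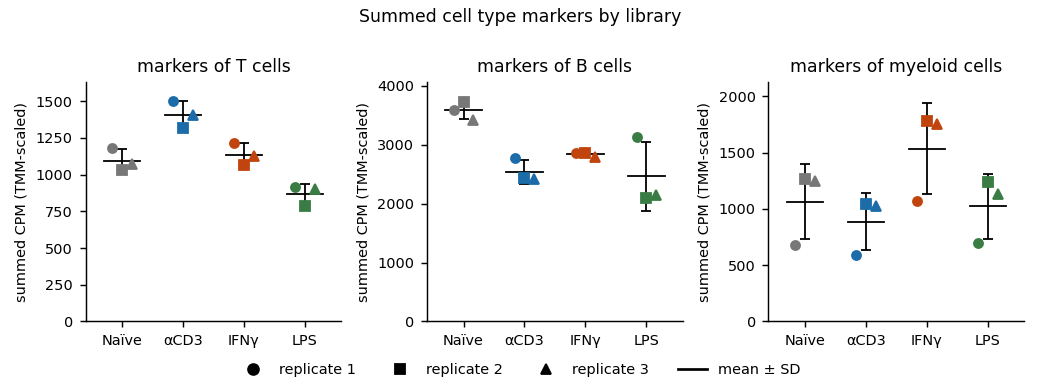
Summed TMM-scaled CPM of the markers of T cells (7 genes), B cells (10 genes) and myeloid cells (14 genes) in each of the 12 libraries, with the mean ± SD of each group as a line and bar. T cell sums were highest with αCD3 (1318 to 1501) and lowest with LPS (783.5 to 913), and replicate 1 had the lowest myeloid sum in each group.

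With αCD3, 16 of the 33 genes rose and 4 fell against Naïve, with a median log2 fold change of 0.27 (all tested genes: 22.9% called higher, 15.7% called lower, median -0.017). LPS gave 16 higher and 7 lower, with a median of 0.25 (all tested genes: 26.9% and 22.3%, median -0.010). IFNγ gave 5 higher and 1 lower, with a median of 0.015 (all tested genes: 8.17% and 4.27%, median -0.024). Taking the 4 groups together, 26 of the 33 differed among them, beside 59.9% of all tested genes. Without Naïve replicate 2, Naïve replicate 3 or αCD3 replicate 2, 2 genes fell with αCD3, and 11.3%, 10.7% and 8.45% of all tested genes fell in those fits. Without Naïve replicate 3, 3 genes rose with IFNγ, beside 5.02% of all tested genes. With IFNγ, 2 fell without Naïve replicate 1, αCD3 replicate 1, αCD3 replicate 2 or LPS replicate 3 (all tested genes: 3.54%, 4.49%, 3.97% and 3.53% lower). The IFNγ median of the 33 genes lay near 0 and ran from -0.0040 without Naïve replicate 1 to 0.053 without Naïve replicate 2. These 3 comparisons share the Naïve libraries, so their values are given side by side and were not correlated.

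Under IFNγ the count depended on the fit. With the replicate number as a block, 8 genes rose and 6 fell with IFNγ (all tested genes in that fit: 13.5% and 11.4%), and 31 of the 33 differed among the 4 groups, beside 72.2% of all tested genes. When libraries were scaled by their size alone, the median of all tested genes moved to -0.13 with αCD3, -0.16 with IFNγ and -0.22 with LPS. The median of the 33 genes moved with it, to 0.16 with αCD3, -0.12 with IFNγ and 0.038 with LPS, and the split of called genes became 13 higher and 5 lower with αCD3, 4 higher and 9 lower with IFNγ, and 8 higher and 9 lower with LPS. The shares of all tested genes moved too, to 17.3% higher and 22% lower with αCD3, 5.9% and 12.9% with IFNγ, and 17.7% and 36.1% with LPS.

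**Figure D2:**
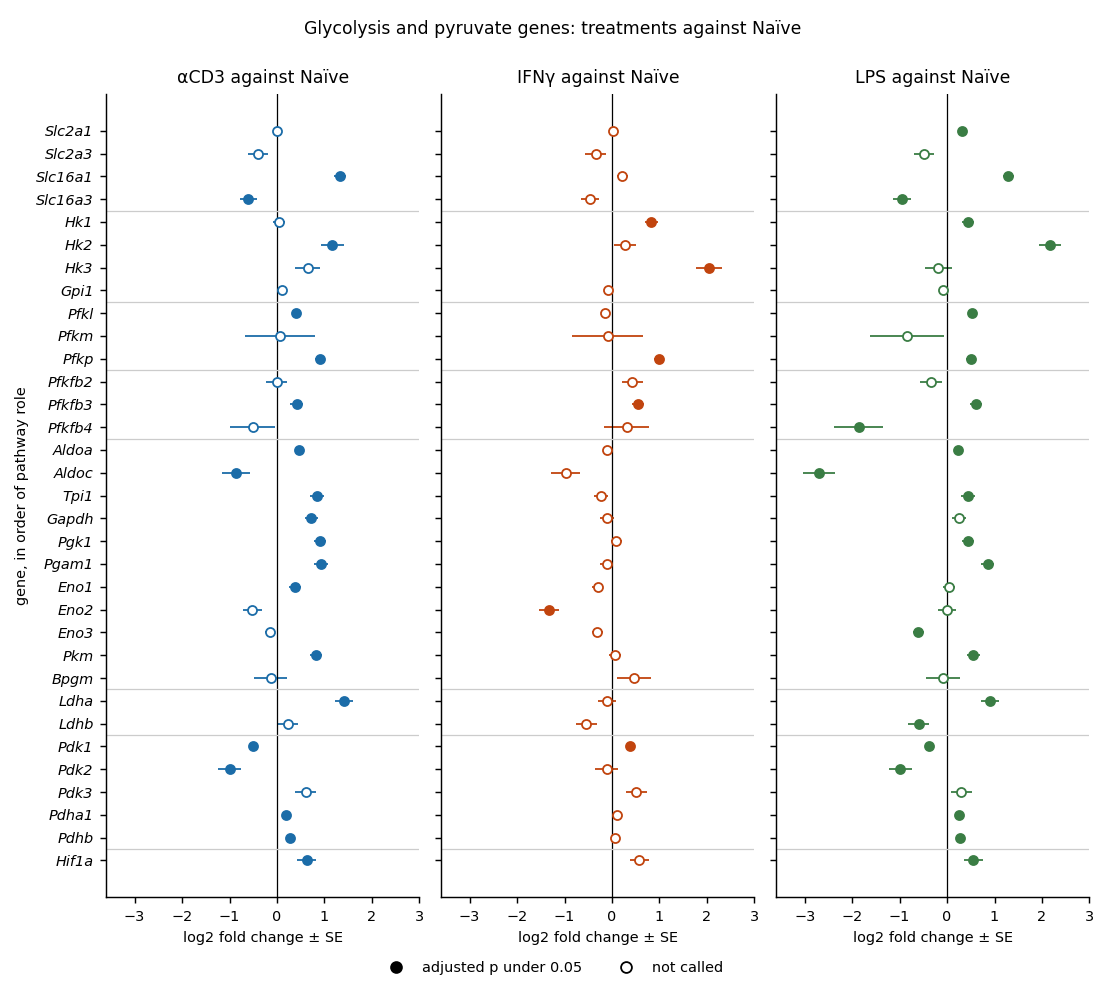
Log2 fold change ± SE against Naïve of the 33 genes, in the order of their role from transport to Hif1a, for αCD3, IFNγ and LPS, with 3 libraries per group. Filled points are called (16 higher and 4 lower with αCD3, 5 and 1 with IFNγ, 16 and 7 with LPS). Hk3 with IFNγ (2.04) and Hk2 with LPS (2.17) lie farthest to the right, and Aldoc with LPS (-2.70) farthest to the left.

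The 4 genes that rose with both αCD3 and LPS by a log2 fold change of at least 0.8 were Slc16a1, Hk2, Ldha and Pgam1, and their promoters are shown because they moved together. They are the lactate and pyruvate transporter MCT1, hexokinase 2, lactate dehydrogenase A and phosphoglycerate mutase 1. They were chosen after their values were seen. Capitals mark ACGTG on either strand (CACGT on the strand shown), the core of the hypoxia response element that Hif1a binds, and CACGTG, the E-box bound by Myc among others, which holds ACGTG on both strands. Each line gives the 250 bases before a RefSeq transcript start, 5′ to 3′ in the direction of the gene.
Slc16a1 promoter, GRCm38.p6 chr3:104638414-104638663, plus strand: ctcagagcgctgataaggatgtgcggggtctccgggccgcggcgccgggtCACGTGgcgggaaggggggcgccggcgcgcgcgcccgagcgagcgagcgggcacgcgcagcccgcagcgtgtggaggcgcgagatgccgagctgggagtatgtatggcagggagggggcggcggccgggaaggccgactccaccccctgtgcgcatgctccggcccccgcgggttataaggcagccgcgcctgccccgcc
Hk2 promoter, GRCm38.p6 chr6:82774455-82774704, minus strand: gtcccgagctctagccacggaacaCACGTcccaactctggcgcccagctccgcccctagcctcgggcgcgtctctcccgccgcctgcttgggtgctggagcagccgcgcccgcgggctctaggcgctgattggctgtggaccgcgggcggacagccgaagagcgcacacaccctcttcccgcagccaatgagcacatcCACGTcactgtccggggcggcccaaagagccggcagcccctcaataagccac
Ldha promoter, GRCm38.p6 chr7:46845554-46845803, plus strand: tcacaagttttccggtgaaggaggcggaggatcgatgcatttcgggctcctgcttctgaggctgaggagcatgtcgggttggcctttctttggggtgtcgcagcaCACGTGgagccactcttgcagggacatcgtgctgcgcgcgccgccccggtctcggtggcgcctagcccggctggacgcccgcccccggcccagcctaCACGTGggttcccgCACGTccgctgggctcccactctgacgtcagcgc
Pgam1 promoter, GRCm38.p6 chr19:41911621-41911870, plus strand: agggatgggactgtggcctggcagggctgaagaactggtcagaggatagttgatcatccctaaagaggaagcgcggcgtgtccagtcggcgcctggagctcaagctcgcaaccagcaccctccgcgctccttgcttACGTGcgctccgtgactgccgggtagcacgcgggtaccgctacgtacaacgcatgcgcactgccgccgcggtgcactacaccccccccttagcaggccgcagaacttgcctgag

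The Slc16a1 window held CACGTG 200 bases before the start. Hk2 had CACGT at 226 and 52 bases before it. The Ldha window held CACGTG at 145 and 48 bases and CACGT at 34 bases before the start, and a second RefSeq window of Ldha held none of these letters. Pgam1 had ACGTG 114 bases before its start. Over windows of 300 bases (250 before and 50 after a start), ACGTG was found in 24 of 48 windows of the listed genes (50%) and in 19.6% of 32851 windows of all genes, and CACGTG in 7 of 48 (14.6%) and in 7.15%. RefSeq gave windows for 32 of the 33 genes. These are matches of letters in windows that were not matched for base composition, and binding was not measured.

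Of the 4 transporters, Slc16a1 (chr3:104638668-104658462, plus strand, GRCm38 coordinates here and below), which encodes MCT1, had the largest differences from Naïve with αCD3 and LPS. It was measured at 46.3, 34.4 and 38.1 CPM in the 3 Naïve libraries, 93.3, 104 and 101 CPM with αCD3, 52.6, 40.9 and 44.7 CPM with IFNγ and 95.5, 104 and 91.6 CPM with LPS. Every αCD3 and LPS library lay above every Naïve and IFNγ library, and the IFNγ libraries overlapped the Naïve ones. Slc16a1 rose with αCD3 (log2 fold change 1.33 ± 0.12, adjusted p = 2.01e-05) and with LPS (1.29 ± 0.12, adjusted p = 1.38e-05), and was not called with IFNγ (0.22 ± 0.12, adjusted p = 0.297).

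Slc16a3, which encodes the lactate exporter MCT4, went the other way. Its libraries held 11.8, 19.6 and 18.2 CPM in the 3 Naïve libraries, 11.3, 9.68 and 11.5 CPM with αCD3, 11.3, 11.8 and 12.8 CPM with IFNγ and 7.16, 8.99 and 9.41 CPM with LPS. All αCD3 and LPS libraries were below all Naïve libraries, and 2 IFNγ libraries lay within the Naïve range. Slc16a3 fell with αCD3 (log2 fold change -0.61 ± 0.18, adjusted p = 0.0229) and with LPS (-0.95 ± 0.19, adjusted p = 0.00180), and was not called with IFNγ (-0.46 ± 0.18, adjusted p = 0.140). The αCD3 call was lost without Naïve replicates 2 or 3 or αCD3 replicate 2 (adjusted p up to 0.0901). Per kilobase of mean coding transcript length, Slc16a1 and Slc16a3 stood at 8.95 ± 1.38 and 8.79 ± 2.22 CPM in Naïve and at 22.5 ± 1.29 and 5.75 ± 0.532 CPM with αCD3 (SD, n = 3). With the longest coding transcript as length, Slc16a1 was already 69.9% of the summed level of both in Naïve.

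Slc2a1, which encodes the glucose transporter GLUT1, was held at 46.2, 46.3 and 46.5 CPM in the 3 Naïve libraries, 45.6, 46.8 and 47.8 CPM with αCD3, 46.2, 45.6 and 48.8 CPM with IFNγ and 54.2, 58.8 and 59.3 CPM with LPS. The 3 LPS libraries were above the 9 others, which spanned only a narrow range. Slc2a1 rose with LPS (log2 fold change 0.31 ± 0.058, adjusted p = 0.00134) and showed little difference with αCD3 (0.011 ± 0.058, adjusted p = 0.896) or IFNγ (0.015 ± 0.058, adjusted p = 0.903). With scaling by library size alone, the LPS difference was 0.10 and was not called (adjusted p = 0.154). Slc2a3, the gene of GLUT3, ranged from 24.4 to 49.9 CPM, with log2 fold changes of -0.39 with αCD3, -0.35 with IFNγ and -0.49 with LPS, none of them called. With the replicate block it was called lower in all 3 comparisons (adjusted p = 0.000794, 0.00561 and 0.000208).

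The 3 hexokinase genes, whose enzymes trap glucose in the cell by phosphorylating it, differed in the treatments with which they rose. Hk2 (chr6:82725025-82774454, minus strand), the inducible hexokinase bound to mitochondria, was measured at 14.7, 18.5 and 19.4 CPM in the 3 Naïve libraries, 26.6, 50.2 and 42.0 CPM with αCD3, 16.3, 21.9 and 25.4 CPM with IFNγ and 68.2, 87.8 and 79.6 CPM with LPS. The LPS libraries were above all others and the αCD3 libraries above all Naïve and IFNγ libraries. Hk2 rose 4.50-fold with LPS (log2 fold change 2.17 ± 0.24, adjusted p = 4.21e-05) and 2.25-fold with αCD3 (1.17 ± 0.23, adjusted p = 0.00289), and was not called with IFNγ (0.28 ± 0.24, adjusted p = 0.528).

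Hk3 (chr13:55005985-55021385, minus strand), a hexokinase known mainly from myeloid cells, had the highest log2 fold change of the 33 genes with IFNγ. It stood at 15.0, 25.9 and 26.8 CPM in the 3 Naïve libraries, 25.4, 41.2 and 39.3 CPM with αCD3, 66.2, 97.8 and 113 CPM with IFNγ and 18.4, 22.9 and 18.0 CPM with LPS. All 3 IFNγ libraries were above the 9 others, and replicate 1 was the lowest within Naïve, αCD3 and IFNγ. Hk3 rose 4.12-fold with IFNγ (log2 fold change 2.04 ± 0.27, adjusted p = 0.00123). It was not called with LPS (-0.18 ± 0.28, adjusted p = 0.618) or with αCD3 (0.65 ± 0.27, adjusted p = 0.0827), although the αCD3 difference was called with the replicate block (adjusted p = 0.00233). The summed myeloid markers were 1072, 1777 and 1758 CPM in the IFNγ libraries and 681.5, 1266 and 1248 CPM in the Naïve libraries, and none of the 14 was at 0 in all libraries. Without Mpeg1 the order turned, as the other 13 summed to 349.8, 673 and 675 CPM with IFNγ and to 429.5, 795 and 789 CPM in Naïve. Mpeg1 was set apart after its values were seen. Among the other 13, means went both ways with IFNγ. Fcgr1 (7.96 CPM in Naïve and 26.0 with IFNγ) and C1qb (15.5 and 25.7) were higher. Csf1r (109 and 57.6) and Itgam (79.1 and 44.6) were lower. Of the 14, 1 was called higher and 1 lower with IFNγ, and their median log2 fold change was -0.08. Their part in the Hk3 values was not tested.

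Hk1 (chr10:62268855-62379908, minus strand), the hexokinase of most tissues, was measured at 92.6, 77.1 and 88.1 CPM in the 3 Naïve libraries, 81.4, 95.6 and 88.9 CPM with αCD3, 132, 169.6 and 158 CPM with IFNγ and 95.4, 121 and 133 CPM with LPS. IFNγ and LPS libraries all exceeded the Naïve libraries, while the αCD3 libraries overlapped them. Hk1 rose with IFNγ (log2 fold change 0.83 ± 0.13, adjusted p = 0.00258) and with LPS (0.44 ± 0.13, adjusted p = 0.0181) and was not called with αCD3 (0.043 ± 0.13, adjusted p = 0.825). The LPS call was lost without Naïve replicate 2 or LPS replicates 2 or 3 (adjusted p up to 0.0799), and with scaling by library size alone (adjusted p = 0.127).

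Per kilobase of mean coding transcript length, Hk1 made up 82.1% ± 4.42 (SD, n = 3) of the level of the 3 hexokinases in Naïve. Hk2 made up 7.12% ± 1.13 in Naïve, 13.4% ± 2.46 with αCD3, 4.30% ± 0.418 with IFNγ and 20.9% ± 1.5 with LPS. The share of Hk3 was 10.8% ± 3.30 in Naïve, 14.1% ± 1.87 with αCD3, 21.8% ± 2.92 with IFNγ and 6.22% ± 0.971 with LPS. The order of Hk2 and Hk3 was thus opposite with IFNγ and LPS. With the longest coding transcript as length, Hk3 made up 41.6% with IFNγ and Hk2 30.0% with LPS. No test was run on these shares, which depend on the transcript length that is used. Gpi1, the gene of glucose-6-phosphate isomerase, ranged from 234 to 296 CPM and was not called against Naïve (log2 fold changes of 0.11, -0.090 and -0.089 with αCD3, IFNγ and LPS).

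**Figure D3:**
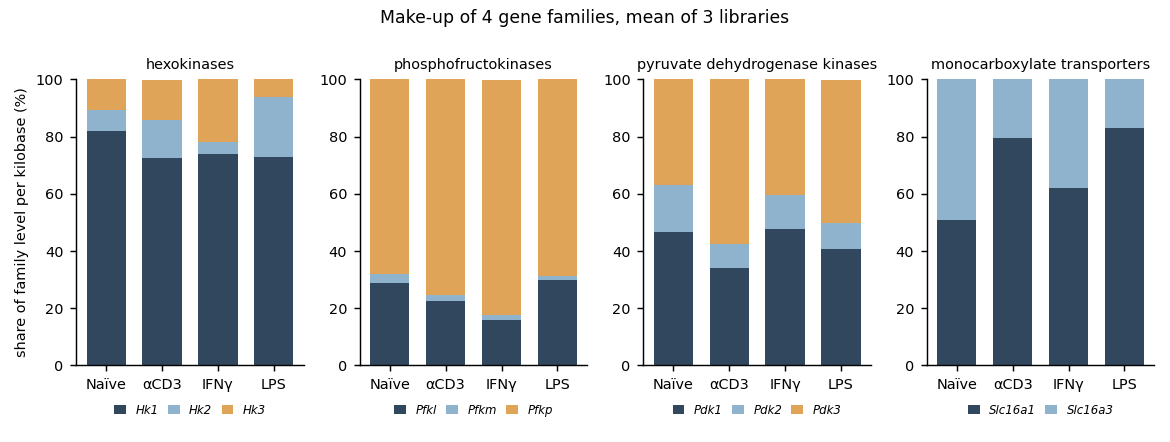
Share of each family's summed level per kilobase of mean coding transcript length (%), as the mean of 3 libraries per group, for hexokinases, phosphofructokinases, pyruvate dehydrogenase kinases and monocarboxylate transporters. Hk2 reached 20.9% with LPS, Hk3 21.8% with IFNγ, and Slc16a1 79.6% with αCD3 and 82.9% with LPS.

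Phosphofructokinase commits glucose to glycolysis, and its platelet-type gene Pfkp (chr13:6579768-6648777, minus strand) rose in all 3 treatments. Pfkp was measured at 126, 128 and 148 CPM in the 3 Naïve libraries, 235, 265 and 257 CPM with αCD3, 252, 267 and 280.3 CPM with IFNγ and 160.0, 206 and 201 CPM with LPS. No treated library overlapped the Naïve libraries. Pfkp rose with αCD3 (0.92 ± 0.10, adjusted p = 8.61e-05), IFNγ (0.99 ± 0.10, adjusted p = 0.000330) and LPS (0.50 ± 0.10, adjusted p = 0.00250). Pfkl, the liver-type gene, ranged from 52.7 to 92.5 CPM. It rose with αCD3 (0.41 ± 0.084, adjusted p = 0.00326) and LPS (0.52 ± 0.084, adjusted p = 0.000522) and was not called with IFNγ (-0.15 ± 0.084, adjusted p = 0.311). Pfkm, the muscle-type gene, stayed between 0 and 7.74 CPM and had no count in LPS replicate 3, and none of its differences from Naïve was called (SE 0.739 to 0.776).

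The Pfkfb genes encode enzymes that make and remove fructose-2,6-bisphosphate, an activator of phosphofructokinase. Pfkfb3 stood at 63.3, 80.4 and 65.8 CPM in the 3 Naïve libraries, 84.1, 99.3 and 95.7 CPM with αCD3, 88.8, 108 and 111 CPM with IFNγ and 98.5, 124 and 98.1 CPM with LPS. Treated libraries all exceeded the Naïve ones, and the 3 treatments overlapped each other. Pfkfb3 rose with αCD3 (0.41 ± 0.13, adjusted p = 0.0260), IFNγ (0.55 ± 0.13, adjusted p = 0.0180) and LPS (0.61 ± 0.13, adjusted p = 0.00258). The αCD3 call was lost without Naïve replicates 1 or 3 or αCD3 replicates 2 or 3 (adjusted p up to 0.0915), and with scaling by library size alone (adjusted p = 0.0592). The IFNγ call was lost without Naïve replicates 1 or 3 or IFNγ replicates 2 or 3 (adjusted p up to 0.0761).

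Pfkfb4 was low, at 8.92, 8.91 and 7.26 CPM in the 3 Naïve libraries, 5.33, 8.11 and 4.27 CPM with αCD3, 12.6, 9.73 and 8.67 CPM with IFNγ and 0.614, 1.34 and 4.75 CPM with LPS. The LPS libraries lay below all Naïve libraries but were themselves spread widely. Pfkfb4 fell with LPS (-1.87 ± 0.52, adjusted p = 0.0126), a call lost without LPS replicate 2 (adjusted p up to 0.0527), and the log2 fold change was -3.05 without LPS replicate 3. It was not called with αCD3 (-0.51 ± 0.48, adjusted p = 0.424) or IFNγ (0.31 ± 0.47, adjusted p = 0.740). Pfkfb2 ranged from 3.38 to 8.23 CPM and was not called against Naïve.

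In the lower part of the pathway, from aldolase to pyruvate kinase, 7 of 11 genes rose and 1 fell with αCD3 (63.6% and 9.09%, beside 22.9% and 15.7% of all tested genes), with a median log2 fold change of 0.47. With LPS 5 rose and 2 fell (45.5% and 18.2%, beside 26.9% and 22.3%; median 0.22), the lower share being near that of all tested genes. With IFNγ none rose and 1 fell (beside 8.17% and 4.27%; median -0.12). The genes that rose with αCD3 were Aldoa, Tpi1, Gapdh, Pgk1, Pgam1, Eno1 and Pkm, so that each step was represented.

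Tpi1, which encodes triosephosphate isomerase, was measured at 57.0, 63.0 and 70.8 CPM in the 3 Naïve libraries, 90.5, 123 and 129 CPM with αCD3, 50.5, 51.9 and 60.2 CPM with IFNγ and 78.3, 85.2 and 95.2 CPM with LPS. All αCD3 and LPS libraries exceeded the Naïve libraries, and the IFNγ libraries overlapped them at the lower end. Tpi1 rose with αCD3 (0.85 ± 0.14, adjusted p = 0.000835) and LPS (0.44 ± 0.14, adjusted p = 0.0219) and was not called with IFNγ (-0.23 ± 0.14, adjusted p = 0.344), where the replicate block called it lower (adjusted p = 0.0402). The LPS call was lost without Naïve replicates 1 or 2 or LPS replicates 2 or 3 (adjusted p up to 0.0851), and with scaling by library size alone (adjusted p = 0.149).

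Gapdh (chr6:125161715-125166467, minus strand), the glyceraldehyde-3-phosphate dehydrogenase gene that is often used as a reference gene, was not constant. It stood at 666, 778 and 812 CPM in the 3 Naïve libraries, 1016, 1330 and 1377 CPM with αCD3, 635, 653 and 809.9 CPM with IFNγ and 779.6, 917 and 985 CPM with LPS. The αCD3 libraries were above all others. Gapdh rose with αCD3 (0.72 ± 0.14, adjusted p = 0.00241) and was not called with LPS (0.25 ± 0.14, adjusted p = 0.163) or IFNγ (-0.11 ± 0.14, adjusted p = 0.699), and with the replicate block the LPS difference was called (adjusted p = 0.00469). Of its 31-base words, 71.9% were found in no other gene of the annotation, so part of its count rests on how reads shared with pseudogenes were divided.

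Pgk1 (chrX:106187100-106203699, plus strand), the gene of phosphoglycerate kinase, which makes the first ATP of the pathway, was measured at 146, 173 and 176 CPM in the 3 Naïve libraries, 273, 334 and 321 CPM with αCD3, 147, 192 and 189 CPM with IFNγ and 207, 227 and 237 CPM with LPS. The αCD3 libraries were highest, the LPS libraries lay above the Naïve and IFNγ libraries, and the last 2 groups overlapped. Pgk1 rose with αCD3 (0.91 ± 0.12, adjusted p = 0.000233) and LPS (0.44 ± 0.12, adjusted p = 0.0114), and was not called with IFNγ (0.092 ± 0.12, adjusted p = 0.691). With scaling by library size alone the LPS difference was not called (adjusted p = 0.0873). Of its 31-base words, 45.3% were its own in the whole annotation, but none was shared with another gene in the table.

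Pgam1 (chr19:41911923-41918660, plus strand) stood at 115, 146 and 146 CPM in the 3 Naïve libraries, 211, 290.0 and 275 CPM with αCD3, 107, 133 and 137 CPM with IFNγ and 221, 258 and 257 CPM with LPS. The αCD3 and LPS libraries did not overlap the Naïve or IFNγ libraries. Pgam1 rose with αCD3 (0.93 ± 0.14, adjusted p = 0.000614) and with LPS (0.85 ± 0.14, adjusted p = 0.000723), was not called between the 2 (0.075 ± 0.14, adjusted p = 0.758), and was not called with IFNγ (-0.12 ± 0.14, adjusted p = 0.678).

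Pkm (chr9:59656368-59679375, plus strand), the pyruvate kinase gene, was measured at 489.9, 539 and 574 CPM in the 3 Naïve libraries, 764, 1032 and 1043 CPM with αCD3, 526, 549 and 589.9 CPM with IFNγ and 666, 849 and 843 CPM with LPS. All αCD3 and LPS libraries exceeded the Naïve libraries, and the IFNγ libraries overlapped them. Pkm rose with αCD3 (0.82 ± 0.13, adjusted p = 0.000650) and LPS (0.56 ± 0.13, adjusted p = 0.00470) and was not called with IFNγ (0.055 ± 0.13, adjusted p = 0.839). The table gives 1 value per gene, so the M1 and M2 forms of pyruvate kinase were not told apart.

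The enolase genes did not move as one. Eno1 ranged from 252 to 472 CPM and rose with αCD3 (0.38 ± 0.12, adjusted p = 0.0279), although 1 αCD3 library lay within the Naïve range, and the call was lost without Naïve replicates 1 or 2 or αCD3 replicates 2 or 3 (adjusted p up to 0.109), and with scaling by library size alone (adjusted p = 0.0793). It was not called with IFNγ (-0.30 ± 0.12, adjusted p = 0.144; with the replicate block, lower with adjusted p = 0.00620). Eno1 shared 27.7% of its 31-base words with Eno1b, and summing the counts of both changed no call.

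Eno2, the neuronal-type enolase, was low at 6.78, 8.37 and 7.69 CPM in the 3 Naïve libraries, 6.56, 4.14 and 5.07 CPM with αCD3, 3.73, 2.48 and 2.83 CPM with IFNγ and 7.36, 8.07 and 7.32 CPM with LPS. The IFNγ libraries were below all others, and the LPS libraries lay within the Naïve range. Eno2 fell with IFNγ (-1.33 ± 0.21, adjusted p = 0.00226), the only one of the 33 genes called lower there, and was not called with LPS (-0.0023 ± 0.20, adjusted p = 0.993) or αCD3 (-0.52 ± 0.20, adjusted p = 0.0570), although the replicate block called it lower with αCD3 (adjusted p = 0.0395). Eno3, the muscle-type enolase, was measured at 17.7, 17.6 and 21.1 CPM in the 3 Naïve libraries, 16.6, 15.2 and 18.9 CPM with αCD3, 14.8, 15.0 and 15.8 CPM with IFNγ and 11.96, 13.1 and 12.1 CPM with LPS. The LPS libraries were below all others. Eno3 fell with LPS (-0.60 ± 0.11, adjusted p = 0.00111) and was not called with αCD3 (-0.16 ± 0.11, adjusted p = 0.273) or IFNγ (-0.31 ± 0.11, adjusted p = 0.0968), although the replicate block called it lower with IFNγ (adjusted p = 0.0429). Per kilobase, Eno1 made up 92.0% ± 0.494 of the enolase level in Naïve.

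The main and the minor aldolase gene moved apart. Aldoa ranged from 389.6 to 632 CPM and rose with αCD3 (0.47 ± 0.075, adjusted p = 0.000736) and LPS (0.22 ± 0.075, adjusted p = 0.0307). The LPS call was lost without Naïve replicates 1 or 2 or LPS replicates 1 or 3 (adjusted p up to 0.109), and with scaling by library size alone, where the difference was 0.012 (adjusted p = 0.897). Aldoc ranged from 0.402 to 4.83 CPM, and fell with LPS (-2.70 ± 0.34, adjusted p = 9.35e-05) and with αCD3 (-0.86 ± 0.29, adjusted p = 0.0361), the latter lost without Naïve replicates 1, 2 or 3 or αCD3 replicates 2 or 3 (adjusted p up to 0.117). It was not called with IFNγ (-0.98 ± 0.30, adjusted p = 0.0551), and was called lower there with the replicate block (adjusted p = 0.0253). Bpgm, the gene of bisphosphoglycerate mutase, an enzyme known from red cells, ranged from 17.4 to 58.6 CPM and was not called against Naïve. The block called it higher with IFNγ (0.45, adjusted p = 0.00690), in libraries where summed erythroid markers ran from 572.9 to 4121 CPM, against 338.9 to 1871 CPM in Naïve, and their part was not tested.

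**Figure D4:**
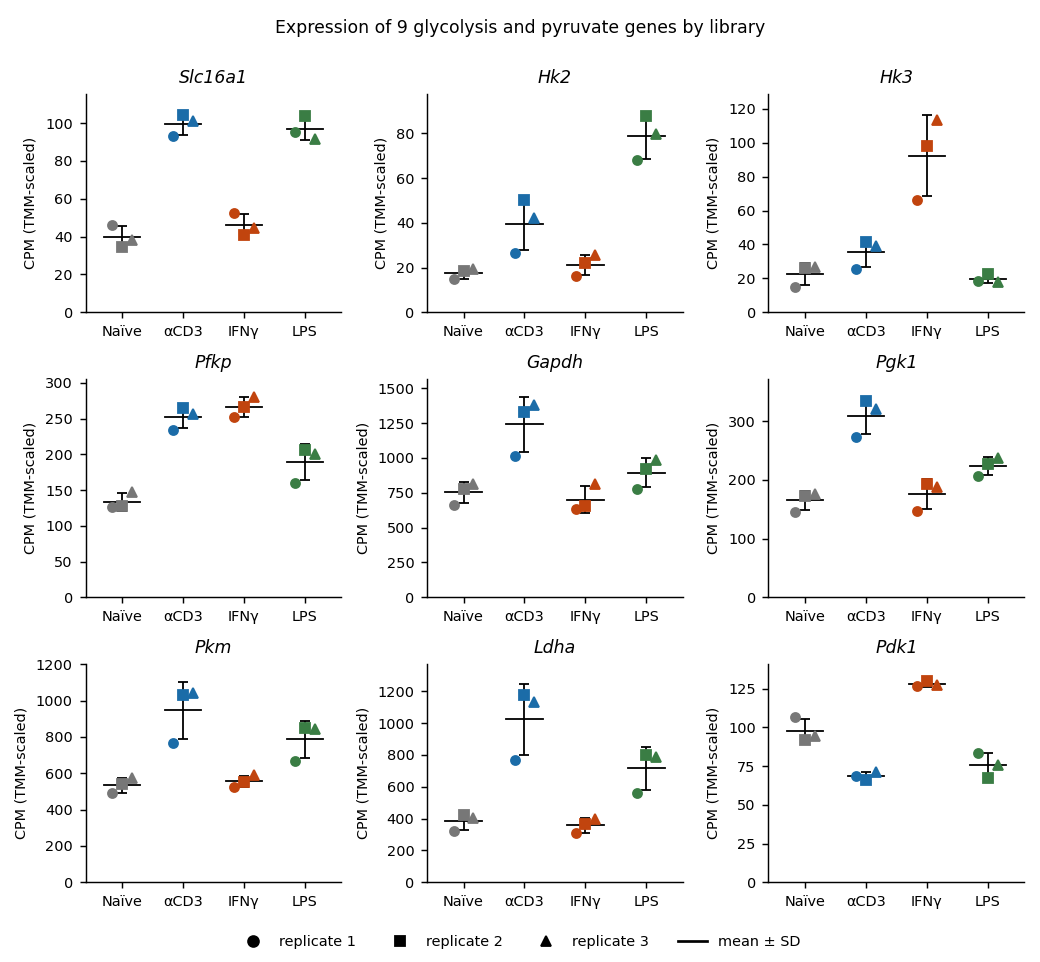
TMM-scaled CPM of 9 genes in each of the 12 libraries, with replicates as symbols and the mean ± SD of each group as a line and bar. Slc16a1, Gapdh, Pgk1, Pkm and Ldha were higher with αCD3 than in every Naïve library, Hk2 was highest with LPS, Hk3 with IFNγ, and Pdk1 was higher with IFNγ and lower with αCD3 and LPS than in Naïve.

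Ldha (chr7:46841475-46855627, plus strand), which encodes the lactate dehydrogenase subunit that favours lactate formation, had the highest log2 fold change of the 33 genes with αCD3, followed by Slc16a1. It was measured at 322, 424 and 402 CPM in the 3 Naïve libraries, 766, 1174 and 1133 CPM with αCD3, 308, 369 and 397 CPM with IFNγ and 561, 797 and 790.1 CPM with LPS. All αCD3 and LPS libraries exceeded all Naïve and IFNγ libraries, with replicate 1 the lowest of each group. Ldha rose 2.68-fold with αCD3 (log2 fold change 1.42 ± 0.19, adjusted p = 0.000278) and 1.87-fold with LPS (0.90 ± 0.19, adjusted p = 0.00284), and was not called with IFNγ (-0.10 ± 0.19, adjusted p = 0.803).

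Ldhb, the subunit of tissues that burn lactate, was low at 5.46, 6.26 and 5.81 CPM in the 3 Naïve libraries, 6.10, 7.61 and 6.85 CPM with αCD3, 2.75, 5.22 and 4.09 CPM with IFNγ and 4.60, 3.45 and 3.54 CPM with LPS. The LPS and IFNγ libraries were below all Naïve libraries, and the αCD3 libraries overlapped them. Ldhb fell with LPS (-0.60 ± 0.22, adjusted p = 0.0437), near the threshold and lost without Naïve replicates 1, 2 or 3, αCD3 replicates 2 or 3, IFNγ replicate 3 or LPS replicates 2 or 3 (adjusted p up to 0.134). It was not called with IFNγ (-0.54 ± 0.22, adjusted p = 0.152) or αCD3 (0.23 ± 0.21, adjusted p = 0.425). Its share of the lactate dehydrogenase level per kilobase was 1.75% ± 0.154 in Naïve, 0.784% ± 0.114 with αCD3, 1.27% ± 0.304 with IFNγ and 0.652% ± 0.251 with LPS.

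At the pyruvate dehydrogenase step inside the mitochondrion, both measured E1 subunits rose slightly with αCD3 and LPS, and the kinases that inhibit the complex differed. Pdha1 ranged from 105 to 134 CPM and Pdhb from 86.9 to 114 CPM. Pdha1 rose by 0.19 ± 0.059, adjusted p = 0.0252 with αCD3, a call lost without Naïve replicates 1 or 2 or αCD3 replicates 2 or 3 (adjusted p up to 0.0824), and by 0.25 ± 0.060, adjusted p = 0.00517 with LPS. Pdhb rose by 0.27 ± 0.064, adjusted p = 0.00737 with αCD3 and 0.26 ± 0.065, adjusted p = 0.00616 with LPS. With scaling by library size alone, Pdha1 was called with neither treatment (adjusted p = 0.25 with αCD3 and 0.535 with LPS), nor Pdhb with LPS (adjusted p = 0.448). Neither was called with IFNγ.

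Pdk1 (chr2:71873224-71903858, plus strand) moved in opposite directions. Its level was 107, 91.7 and 94.5 CPM in the 3 Naïve libraries, 68.7, 66.3 and 71.3 CPM with αCD3, 127, 129.9 and 127 CPM with IFNγ and 83.5, 67.4 and 75.6 CPM with LPS. All IFNγ libraries were above all Naïve libraries, which were above all αCD3 and LPS libraries. Pdk1 rose with IFNγ (0.39 ± 0.083, adjusted p = 0.0115), and fell with αCD3 (-0.51 ± 0.083, adjusted p = 0.000821) and LPS (-0.37 ± 0.083, adjusted p = 0.00377). The IFNγ call was lost without Naïve replicates 2 or 3 (adjusted p up to 0.0553), and with scaling by library size alone (adjusted p = 0.0825).

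Pdk2 (chr11:95026258-95041354, minus strand) stood at 15.3, 13.3 and 15.4 CPM in the 3 Naïve libraries, 9.80, 5.29 and 6.61 CPM with αCD3, 16.4, 12.4 and 11.9 CPM with IFNγ and 9.51, 5.46 and 7.32 CPM with LPS. The αCD3 and LPS libraries were below all Naïve libraries, and the IFNγ libraries overlapped the latter. Pdk2 fell with αCD3 (-0.999 ± 0.24, adjusted p = 0.00840) and LPS (-0.99 ± 0.25, adjusted p = 0.00716) and was not called between them (-0.013 ± 0.25, adjusted p = 0.980) or with IFNγ (-0.11 ± 0.24, adjusted p = 0.819). Pdk3 ranged from 26.8 to 56.1 CPM and was not called against Naïve (0.61 ± 0.22, adjusted p = 0.0524 with αCD3, 0.51 ± 0.22, adjusted p = 0.181 with IFNγ and 0.30 ± 0.22, adjusted p = 0.287 with LPS), but the replicate block called it higher in each (adjusted p = 0.000613, 0.00625 and 0.0424). Per kilobase, Pdk1 was the larger of Pdk1 and Pdk3 in Naïve (18.8 ± 1.55 and 14.9 ± 1.47 CPM per kilobase) and the smaller with αCD3 (13.3 ± 0.484 and 22.7 ± 3.92).

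Hif1a (chr12:73901375-73947530, plus strand), the oxygen-regulated subunit of the transcription factor HIF-1, was measured at 199.6, 247 and 249 CPM in the 3 Naïve libraries, 277, 410.3 and 385 CPM with αCD3, 291, 379 and 368 CPM with IFNγ and 248, 410.3 and 359 CPM with LPS. Replicate 1 was the lowest in every group, and LPS replicate 1 lay within the Naïve range. Hif1a rose with αCD3 (0.62 ± 0.20, adjusted p = 0.0299) and LPS (0.55 ± 0.20, adjusted p = 0.0407), and a log2 fold change close to these was not called with IFNγ (0.58 ± 0.20, adjusted p = 0.0910). With the replicate block the IFNγ difference was called too (adjusted p = 0.000267). The αCD3 call was lost without Naïve replicates 1, 2 or 3 or αCD3 replicates 2 or 3 (adjusted p up to 0.112). The LPS call was lost without Naïve replicates 1, 2 or 3, αCD3 replicate 3, IFNγ replicates 2 or 3 or LPS replicates 2 or 3 (adjusted p up to 0.162), and with scaling by library size alone (adjusted p = 0.138). The test of any difference among the 4 groups did not call Hif1a (adjusted p = 0.0596). With the replicate block that test called it (adjusted p = 7.09e-05).

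Comparing the treatments with each other, 15 of the 33 genes were lower and 4 higher with IFNγ than with αCD3 (all tested genes: 21.4% and 15.8%), with a median of -0.15 (-0.096 without αCD3 replicate 3 and -0.20 without αCD3 replicate 1). The lower genes held 8 of the 11 lower glycolysis genes and both lactate dehydrogenases. Among the largest differences were Ldha (-1.52 ± 0.19, adjusted p = 0.000170), Slc16a1 (-1.11 ± 0.12, adjusted p = 4.72e-05), Tpi1 (-1.08 ± 0.14, adjusted p = 0.000179) and Pgam1 (-1.04 ± 0.15, adjusted p = 0.000263). Higher with IFNγ were Hk3 (1.40 ± 0.27, adjusted p = 0.00217), Pdk1 (0.90 ± 0.083, adjusted p = 2.00e-05), Pdk2 (0.89 ± 0.25, adjusted p = 0.0158) and Hk1 (0.79 ± 0.13, adjusted p = 0.000893). The call on Gpi1 (-0.20 ± 0.065, adjusted p = 0.0314) was lost without αCD3 replicates 2 or 3 or IFNγ replicates 2 or 3 (adjusted p up to 0.119), that on Ldhb (-0.77 ± 0.22, adjusted p = 0.0189) without αCD3 replicate 2 or IFNγ replicate 1 (adjusted p up to 0.0645), that on Pdk2 without αCD3 replicates 2 or 3 or IFNγ replicate 1 (adjusted p up to 0.0614) and that on Pdhb (-0.21 ± 0.065, adjusted p = 0.0259) without αCD3 replicates 2 or 3 or IFNγ replicates 1 or 2 (adjusted p up to 0.0911). The block also called Bpgm higher (adjusted p = 0.000887).

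Against LPS, 13 genes were lower and 8 higher with IFNγ (all tested genes: 22.4% and 18%), with a median of -0.0020 that was -0.12 without LPS replicate 1 and -0.10 without IFNγ replicate 2. Scaling by library size alone gave 10 of each (all tested genes: 19.2% lower and 21.3% higher) and a median of 0.068. Hk2 (-1.89 ± 0.24, adjusted p = 0.000106) and Hk3 (2.22 ± 0.28, adjusted p = 0.000119) stood at the 2 ends, with Eno2 (-1.33 ± 0.21, adjusted p = 0.000474), Slc16a1 (-1.07 ± 0.12, adjusted p = 4.28e-05) and Ldha (-1.001 ± 0.19, adjusted p = 0.00183) also lower. Pfkfb4 (2.17 ± 0.52, adjusted p = 0.00712), Aldoc (1.72 ± 0.35, adjusted p = 0.00248) and Pdk1 (0.76 ± 0.084, adjusted p = 4.05e-05) were higher with IFNγ. For Pfkfb4 the value was 3.36 without LPS replicate 3. The call on Hk1 (0.39 ± 0.13, adjusted p = 0.0348) was lost without IFNγ replicates 2 or 3 or LPS replicates 1 or 2 (adjusted p up to 0.122). Pfkfb2 (0.77 ± 0.23, adjusted p = 0.0201) lost its call without IFNγ replicate 2 or LPS replicate 3 (adjusted p up to 0.0842), and Pdk2 (0.87 ± 0.25, adjusted p = 0.0167) without IFNγ replicate 1 or LPS replicates 2 or 3 (adjusted p up to 0.0683). Among the lower genes, Pgk1 (-0.35 ± 0.12, adjusted p = 0.0402) lost its call without Naïve replicates 2 or 3, αCD3 replicate 3, IFNγ replicate 1 or LPS replicates 2 or 3 (adjusted p up to 0.145), Eno1 (-0.34 ± 0.12, adjusted p = 0.0434) without Naïve replicate 2, αCD3 replicate 2, IFNγ replicates 1, 2 or 3 or LPS replicates 2 or 3 (adjusted p up to 0.162), and Pdhb (-0.20 ± 0.065, adjusted p = 0.0277) without IFNγ replicates 1 or 2 or LPS replicates 2 or 3 (adjusted p up to 0.117). With the replicate block, Gapdh and Pdha1 were also called lower (adjusted p = 0.000607 and 0.0267), and Slc16a3, Eno3 and Bpgm higher (adjusted p = 0.0270, 0.0298 and 0.000847).

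Fewer genes were called between αCD3 and LPS. With αCD3, 7 genes were higher and 2 lower than with LPS (all tested genes: 9.64% and 9.76%), with a median of 0.25. The higher genes numbered 13 with DESeq2, 13 with library size alone and 4 with 2 groups alone (all tested genes: 10.6%, 13.9% and 6.56% higher). The 2 lower genes were Hk2 (-0.998 ± 0.23, adjusted p = 0.0116) and Slc2a1 (-0.30 ± 0.058, adjusted p = 0.00507), at the first steps of the pathway. The 7 higher genes were Aldoc (1.84 ± 0.34, adjusted p = 0.00387), Ldhb (0.83 ± 0.22, adjusted p = 0.0249), Gapdh (0.47 ± 0.14, adjusted p = 0.0374), Pgk1 (0.47 ± 0.12, adjusted p = 0.0205), Eno3 (0.45 ± 0.11, adjusted p = 0.0165), Pfkp (0.42 ± 0.10, adjusted p = 0.0172) and Aldoa (0.25 ± 0.075, adjusted p = 0.0413). The count of higher genes was 13 without αCD3 replicate 1, 2 without αCD3 replicate 2, 1 without αCD3 replicate 3, 3 without LPS replicate 2 and 4 without LPS replicate 3 (all tested genes: 7.47%, 7.81%, 6.63%, 5.84% and 6.22% higher, in that order). Of the 7 genes, Ldhb lost its call without αCD3 replicates 2 or 3 or LPS replicates 2 or 3 (adjusted p up to 0.0926), Gapdh without Naïve replicate 2, αCD3 replicates 2 or 3 or LPS replicates 1, 2 or 3 (adjusted p up to 0.128), Pgk1 without αCD3 replicates 2 or 3 or LPS replicates 1 or 2 (adjusted p up to 0.0667), Eno3 without αCD3 replicate 3 or LPS replicate 3 (adjusted p up to 0.0658), Pfkp without αCD3 replicates 2 or 3 (adjusted p up to 0.0562) and Aldoa without Naïve replicate 2, αCD3 replicates 2 or 3 or LPS replicates 1, 2 or 3 (adjusted p up to 0.146). With the replicate block, 14 genes were higher and 3 lower (all tested genes: 16.5% and 18.2%), where Ldha (0.51, adjusted p = 0.000171), Tpi1 (adjusted p = 0.00154), Hk3 (adjusted p = 0.00166), Eno1 (adjusted p = 0.00183), Pkm (adjusted p = 0.0108), Gpi1 (adjusted p = 0.0187) and Pdk3 (adjusted p = 0.0300) joined the higher genes and Hk1 (adjusted p = 0.0289) the lower.

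**Figure D5:**
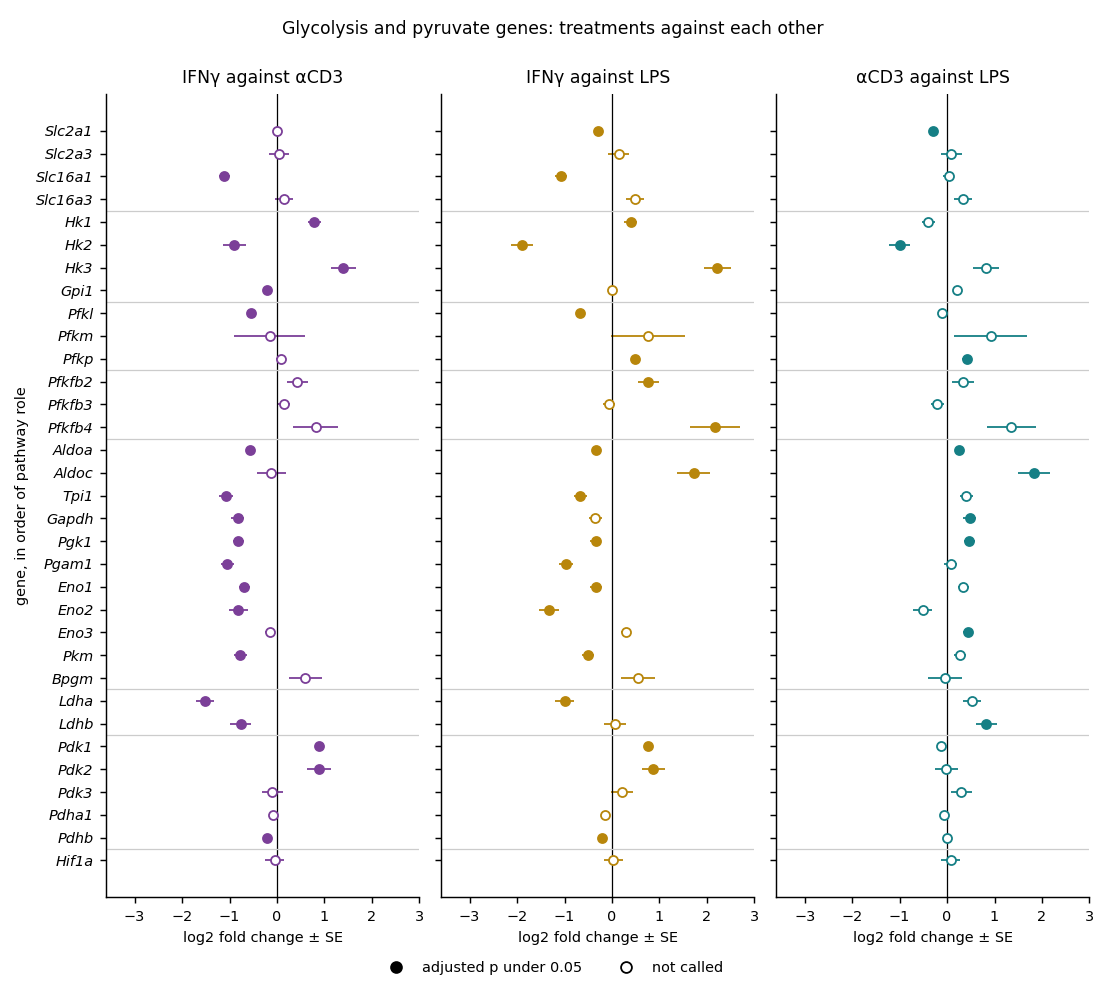
Log2 fold change ± SE of the 33 genes between treatments, in the order of their role, for IFNγ against αCD3, IFNγ against LPS and αCD3 against LPS, with 3 libraries per group. Filled points are called. With IFNγ, 15 genes were lower than with αCD3 and 13 lower than with LPS, and αCD3 against LPS had 7 higher and 2 lower.

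By level, the 33 genes spanned a wide range. Per kilobase of mean coding transcript length in Naïve, Gapdh (778 ± 79.3 CPM per kilobase, SD, n = 3) stood first, followed by Pkm (520.0 ± 41.0), Aldoa (423 ± 25.7), Ldha (390.0 ± 54.9), Eno1 (294 ± 40.2) and Gpi1 (201 ± 0.494). Aldoa and Ldha, next to each other in that order, overlapped within their SD. The order turned with the length used, and per kilobase of the longest coding transcript, Gapdh (530.0 CPM per kilobase) was followed by Aldoa (285), Pkm (220.0), Ldha (211) and Eno1 (161). At the low end by mean coding length were Pfkfb4 (2.46 ± 0.281), Aldoc (2.08 ± 0.0782) and Pfkfb2 (2.00 ± 0.466). With αCD3, Ldha reached 1040 ± 229 CPM per kilobase beside 1280 ± 203 for Gapdh and 922 ± 154 for Pkm.

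Neighbouring pathways were read from lists of their genes, whose calls were not checked in the alternative fits or with libraries left out. Of all tested genes, 22.9% rose and 15.7% fell with αCD3, 26.9% and 22.3% with LPS, and 8.17% and 4.27% with IFNγ. Of 10 genes of the pentose phosphate pathway, which branches from glucose-6-phosphate, 5 rose with αCD3 (50%) and 8 with LPS (80%) and none fell. With IFNγ none rose and 1 fell (10%). The medians were 0.35, 0.54 and 0.16 in the order αCD3, LPS and IFNγ. Tkt, the transketolase gene, rose with αCD3 (0.82 ± 0.079, adjusted p = 3.07e-05) and LPS (0.62 ± 0.079, adjusted p = 0.000103) and was the gene that fell with IFNγ (-0.33 ± 0.080, adjusted p = 0.0227). Prps1 and Prps2, which make the ribose phosphate donor of nucleotides, both rose with LPS (0.82 ± 0.12, adjusted p = 0.000341 and 0.37 ± 0.11, adjusted p = 0.0155), and Prps2 also rose with αCD3 (0.81 ± 0.11, adjusted p = 0.000220), where Prps1 was not called (-0.030 ± 0.12, adjusted p = 0.866). Pgd, an NADPH-producing dehydrogenase, rose with both (αCD3 0.53 ± 0.16, adjusted p = 0.0255 and LPS 0.72 ± 0.16, adjusted p = 0.00421).

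Of 10 tested genes of mitochondrial pyruvate entry and use, 3 rose with αCD3 (30%), 5 rose and 1 fell with LPS (50% and 10%) and none was called with IFNγ. All tested genes gave 22.9% higher and 15.7% lower with αCD3, 8.17% and 4.27% with IFNγ, and 26.9% and 22.3% with LPS. Dlat, the E2 subunit of pyruvate dehydrogenase, rose with αCD3 (0.52 ± 0.11, adjusted p = 0.00376) and LPS (0.57 ± 0.11, adjusted p = 0.00159), and Pdp1, a phosphatase that reactivates the complex, with LPS (0.64 ± 0.17, adjusted p = 0.00925). Of 11 tested other genes of glycolysis and gluconeogenesis, 3 rose and 1 fell with αCD3 (27.3% and 9.09%). With IFNγ 1 rose and 1 fell (9.09% each), and with LPS 4 rose and 2 fell (36.4% and 18.2%). Gpd2, the mitochondrial glycerol-3-phosphate dehydrogenase, rose with IFNγ (0.60 ± 0.10, adjusted p = 0.00291) and LPS (0.87 ± 0.10, adjusted p = 4.62e-05), and Galm, the galactose mutarotase gene, fell with αCD3 (-1.19 ± 0.20, adjusted p = 0.000963) and LPS (-1.29 ± 0.21, adjusted p = 0.000493). Among 12 genes of glycogen and hexose phosphates, 2 rose and 2 fell with αCD3 (16.7% each). With IFNγ none rose and 2 fell (16.7%), and with LPS 3 rose and 4 fell (25% and 33.3%). Pygl, a glycogen phosphorylase, fell in all 3 (αCD3 -1.04 ± 0.23, adjusted p = 0.00539, IFNγ -1.77 ± 0.24, adjusted p = 0.00130 and LPS -1.52 ± 0.24, adjusted p = 0.000480). Of 7 other transporters, 1 rose and 2 fell with αCD3 (14.3% and 28.6%). With IFNγ 1 rose and 1 fell (14.3% each), and with LPS 2 rose and 1 fell (28.6% and 14.3%). In this list Slc2a6, a hexose transporter of the GLUT family, was lower with IFNγ (-0.98 ± 0.11, adjusted p = 0.000518) and αCD3 (-0.76 ± 0.11, adjusted p = 0.000436). Several shares in these lists, such as that of glycogen genes lower with αCD3, were near those of all tested genes.

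Among 11 partners and regulators of Hif1a, 1 rose and 4 fell with αCD3 (9.09% and 36.4%). With IFNγ none rose and 1 fell (9.09%), and with LPS 2 rose and 2 fell (18.2% each). All tested genes gave 22.9% higher and 15.7% lower with αCD3, 8.17% and 4.27% with IFNγ, and 26.9% and 22.3% with LPS. Myc stood at 151 ± 7.50 CPM (SD, n = 3) in Naïve, 508 ± 109 with αCD3, 187 ± 26.8 with IFNγ and 597 ± 37.7 with LPS. It rose with αCD3 (1.75 ± 0.15, adjusted p = 1.90e-05) and LPS (1.98 ± 0.15, adjusted p = 5.12e-06) and was not called with IFNγ (0.31 ± 0.15, adjusted p = 0.234). Arnt, which encodes the partner that Hif1a binds DNA with, fell with αCD3 (-0.37 ± 0.077, adjusted p = 0.00326). Of 14 Hif1a targets outside glycolysis, 4 rose and 4 fell with αCD3 (28.6% each). With IFNγ none rose and 2 fell (14.3%), and with LPS 4 rose and 3 fell (28.6% and 21.4%). Both LPS shares were near those of all tested genes. Adm, the adrenomedullin gene, rose with LPS (1.07 ± 0.25, adjusted p = 0.00476) and fell with IFNγ (-1.15 ± 0.27, adjusted p = 0.0180). Ndrg1 rose with αCD3 (1.04 ± 0.17, adjusted p = 0.000861) and LPS (0.65 ± 0.17, adjusted p = 0.00987), and Bnip3l, a mitophagy receptor, fell with both (αCD3 -0.68 ± 0.14, adjusted p = 0.00319 and LPS -0.83 ± 0.14, adjusted p = 0.000706).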

How the data were processed

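Messenger RNA of mouse splenic CD8 T cells was measured in 12 libraries, 3 in each of 4 groups, placed in their groups from the labels. Reads were pseudo-aligned by the authors with Kallisto to mm10, and they deposited expected counts per gene symbol, 1 column per library, not scaled. The submitters' notes also name DESeq2 1.24.0. The Kallisto version, transcript annotation and strandedness are not given in the sources used here. Kallisto divides reads shared between genes, so values of genes with pseudogenes or overlapping genes are less certain. Counts were rounded to whole numbers. The quasi-likelihood test of edgeR 4.0.16 in R 4.3.3 (TMM, filterByExpr, robust) was fitted to all 12 libraries and 12122 genes with group as the only term. The study's methods state no replicate term and give no model formula. P-values were adjusted over all genes (Benjamini-Hochberg). Fitting was tested on simulated data.

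Alternatives were DESeq2 1.42.0, RLE factors, library size alone, no filter, 2 groups alone, the replicate block, each library left out, and, added after seeing the data, Eno1 and Eno1b summed. Libraries with the same replicate number tended to deviate together, and only the replicate block uses this. The main fit leaves the number out, so its SE and adjusted p ignore any pairing. Deviations from group means correlated at 0.117 to 0.401 in all 18 pairs with the same number, and at -0.354 to 0.102 in 36 other pairs. Each group has 3 libraries, so subtracting its mean pushes other pairs below 0 when same-number pairs are above it. The 2 ranges are therefore not independent. The labels do not say what a number marks.

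Each library's value is given for genes called with an absolute log2 fold change of at least 0.58 against Naïve and a mean of at least 5 CPM in some group, and for Hif1a, Slc2a1, Ldha and Ldhb (20 genes), and the range for the other 13. Pdk1 and the marker sums have library values as well, chosen after they were seen. Of related lists, up to 4 called genes with the largest change qualified, and not all are named. The genes and lists were chosen with earlier results of these data known. Lengths and coordinates came from GENCODE M21 (GRCm38, mm10), and promoters from RefSeq on GRCm38.p6.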

Additional observations from a re-analysis of the deposited data

How the results depend on the processing

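No gene changed direction past its threshold under any alternative. Genes lower with αCD3 numbered 2 with 2 groups alone (all tested genes: 14.9%). For IFNγ against Naïve, 8 genes were higher with the replicate block, and the lower genes numbered 2 with DESeq2, 9 with library size alone, 6 with the replicate block and 2 with 2 groups alone (all tested genes: 13.5% higher with the block, and 5%, 12.9%, 11.4% and 3.71% lower in the order given). Genes higher with LPS than Naïve numbered 8 with library size alone (all tested genes: 17.7%). For αCD3 against LPS, higher genes numbered 13 with DESeq2, 13 with library size alone, 14 with the replicate block and 4 with 2 groups alone (all tested genes: 10.6%, 13.9%, 16.5% and 6.56%). Except with library size alone, whose construction shifts all genes, the cause was not tested. Between pairs of groups, the replicate block changed no call other than the 29 given with their genes, all of them gained. In the test among the 4 groups it gained Slc2a3, Gpi1, Bpgm, Pdk3 and Hif1a (adjusted p = 0.000519, 0.0204, 0.00111, 0.00157 and 7.09e-05) and lost none. Over 198 gene and comparison pairs, DESeq2 gained 10 calls and lost 0, RLE factors gained 2 and lost 3, library size alone gained 19 and lost 15, 2 groups alone gained 5 and lost 14, and no count filter gained 0 and lost 3. Leaving out 1 library at a time, genes higher and lower ranged from 12 to 18 and 2 to 6 (αCD3 against Naïve), 3 to 6 and 1 to 2 (IFNγ against Naïve), 12 to 16 and 5 to 8 (LPS against Naïve), 3 to 5 and 12 to 15 (IFNγ against αCD3), 6 to 9 and 10 to 14 (IFNγ against LPS) and 1 to 13 and 2 to 3 (αCD3 against LPS), and 25 to 29 genes differed among the 4 groups. Where a group kept 2 libraries, the spread was shared with the other groups. With 10.2 M to 27.6 M counts per library, low genes such as Pfkm, Aldoc and Pfkfb4 have wide errors.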

Other observations

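Replicate 1 had the lowest level in all 4 groups for 13 of the 33 genes (39.4%), beside 1875 of 12122 tested genes (15.5%). These were Hk2, Pfkp, Tpi1, Gapdh, Pgk1, Pgam1, Pkm, Bpgm, Ldha, Pdk3, Pdha1, Pdhb and Hif1a. Replicate 3 had the highest level in all 4 groups for 5 of the 33 genes (15.2%), beside 380 of 12122 tested genes (3.13%). Those 5 were Slc2a1, Aldoa, Tpi1, Gapdh and Eno1. The summed T cell markers were highest in replicate 1 of each group (1181, 1501, 1217 and 913 CPM in Naïve, αCD3, IFNγ and LPS), and the summed myeloid markers were lowest there (681.5, 592, 1072 and 693 CPM). The 2 CD8 T cell markers also summed to their lowest values there (532.9, 637.9, 549.5 and 480.0 CPM), as did the 4 CD4 T cell markers (103.5, 79.2, 91.4 and 66.9 CPM). Summed erythroid markers were also lowest in replicate 1 of each group (338.9, 407, 573 and 479.9 CPM). What sets the replicates apart was not tested.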
